A study of Mus musculus with 9 samples.

Results

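A T-cell receptor beta chain (TRB) is joined from a V, a D and a J gene, and its junction is the stretch that encodes the main antigen-contacting loop, from the conserved cysteine of the V gene to the conserved phenylalanine of the J gene. The junctions described here were those with few added bases. They were chosen by measured values: a productive TRB contig had to carry a D gene call and at most 2 bases that the deposited annotation assigned to no V, D or J gene, summed over the V-D and D-J joins. Counted once per library for each combination of TRBV gene, TRBJ gene and junction nucleotides, 7927 of 20467 junctions with a D call in 8 libraries met this rule, or 38.7%. The 12540 junctions with 3 or more added bases were the comparison. Just inside the limit, 3656 junctions had 2 added bases, and just outside it 3504 had 3. A further 2674 had 1 and 1597 had 0, and the largest number was 24.

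Cells were taken from 3 types of lymph node, the deep cervical (dCLN), the superficial cervical (sCLN) and the inguinal ones (iLN). Donors were female mice aged 10 to 11 months, either wild type (WT) or 5xFAD, a transgenic line that carries familial Alzheimer's disease mutations. Each node and genotype gave 1 library, which makes 6 main libraries: dCLN WT, dCLN 5xFAD, sCLN WT, sCLN 5xFAD, iLN WT and iLN 5xFAD. A dCLN library labelled WT had CD4 in its title, and another library mixed all 3 node types and both genotypes. Both had been annotated against another set of germline alleles and are given beside the 6 without a test of their own. They entered tests only in alternative settings, with 8 libraries or as libraries searched for recurrence. A second CD4-titled library, labelled 5xFAD, was left out because it shared 6829 of its 6915 barcodes with the first, so whether those cells were WT or 5xFAD cannot be told from the labels. Cells were tagged with hashtag antibodies and pooled into composite samples. Neither the number of animals per library nor whether 1 animal gave several nodes is stated in the labels. The p-values therefore speak for these libraries and not for the spread between animals.

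When V, D and J genes are cut and joined, bases are trimmed from their ends, short palindromic (P) bases can remain at the cut ends, and the enzyme terminal deoxynucleotidyl transferase (TdT) adds non-templated (N) bases. Junctions made before TdT is expressed, as in the fetal thymus, have few or no N bases, and joins made without N bases are known to recur between individuals because few different outcomes are possible. The added bases counted here may be N or P bases, and the annotation can also take an added base for a mismatched germline base: the V-encoded letters differed from GRCm38 in 5.15% ± 0.653 of few-addition and 1.75% ± 0.503 of other junctions (SD, n = 6 libraries).

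The germline ends from which the junctions were made set what a join without added bases can look like. They were read from GRCm38, where the TRB genes lie on chromosome 6 (chr6:40891229-41558452), and are given 5′ to 3′ for the genes on which the results below turn. V ends start at the conserved cysteine codon, and J starts end at the conserved phenylalanine codon. Capitals mark a stop codon in the reading frame of the junction.
TRBD1, chr6:41533201-41533212, plus strand: gggacagggggc
TRBD2, chr6:41542163-41542176, plus strand: gggactgggggggc
TRBV4, end of chr6:41059394-41059886, plus strand: tgtgccagcagcTAAga
TRBV13-3, end of chr6:41130147-41130585, plus strand: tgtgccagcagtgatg
TRBJ1-3, start of chr6:41534323-41534376, plus strand: ttctggaaatacgctctatttt
TRBJ2-2, start of chr6:41542957-41543007, plus strand: caaacaccgggcagctctacttt
TRBJ2-3, start of chr6:41543223-41543271, plus strand: agtgcagaaacgctgtatttt
TRBJ2-7, start of chr6:41543810-41543856, plus strand: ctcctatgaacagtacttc
TRBV4 was the 1 gene of 21 TRBV genes whose germline end held a stop codon in frame. Since only productive junctions were kept, 0 of its 799 junctions in the main libraries held a stop codon there, which the selection fixes.

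Single junctions showed how the same amino acids were reached from different genes with few added bases. The 13-residue junction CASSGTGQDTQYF occurred in 4 libraries, the 3 WT main libraries and the CD4-titled one, always with TRBJ2-5. Its versions are shown with added bases in capitals. They used 3 different V genes and both D genes, and 3 of the 5 had no added base.
TRBV13-3, TRBD1, dCLN WT: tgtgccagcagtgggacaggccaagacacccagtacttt
TRBV13-3, TRBD2, sCLN WT: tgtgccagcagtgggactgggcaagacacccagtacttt
TRBV26, TRBD2, dCLN WT: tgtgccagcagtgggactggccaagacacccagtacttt
TRBV14, TRBD2, iLN WT: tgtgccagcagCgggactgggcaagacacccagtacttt
TRBV13-3, TRBD2, CD4-titled: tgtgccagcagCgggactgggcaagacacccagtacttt

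The share of few-addition junctions ran from 36.4% to 41.1% over the 8 libraries and was close between nodes. In the WT dCLN library, 589 of 1472 junctions were of this kind, or 40.0% (exact Clopper-Pearson 95% interval 37.5 to 42.6). In dCLN 5xFAD it was 1303 of 3481, or 37.4% (35.8 to 39.1). The sCLN libraries lay farthest apart, as the next values show. In sCLN WT it was 571 of 1407, or 40.6% (38.0 to 43.2). In sCLN 5xFAD it was 923 of 2533, or 36.4% (34.6 to 38.4). In iLN WT it was 722 of 1853, or 39.0% (36.7 to 41.2), and in iLN 5xFAD 703 of 1839, or 38.2% (36.0 to 40.5). The 3 WT libraries were all above the 3 5xFAD libraries. The CD4-titled library, at 41.1% (39.8 to 42.5; 2013 of 4893), was above every main library. The mixed library, at 36.9% (35.2 to 38.7; 1103 of 2989), lay among the 5xFAD values. These intervals cover counting error only.

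By genotype, few-addition junctions made up 39.9% ± 0.821 of the WT libraries and 37.4% ± 0.896 of the 5xFAD libraries (SD, n = 3 libraries each). The share was lower in 5xFAD in 3 of 3 node types, by a mean of 2.49 percentage points. An exact sign-flip permutation test over the 3 node types gave a two-sided p = 0.25, the smallest it can give, so a difference could not be shown at this number of libraries. By node, 5xFAD minus WT was -2.58 points in dCLN (Newcombe 95% interval -5.57 to 0.376), -4.14 in sCLN (-7.33 to -0.978) and -0.736 in iLN (-3.87 to 2.40). Only the sCLN interval lay wholly below 0, and it covers counting error alone. Among junctions with a TRBJ2 gene the share was 39.4% ± 1.55 in WT and 36.0% ± 0.623 in 5xFAD, again lower in 3 of 3 node types (exact permutation p = 0.25, the smallest possible). Among junctions with a TRBJ1 gene it was 40.8% ± 1.51 and 40.8% ± 2.28, with 2 of 3 node types lower. Junctions with 0 added bases were 7.99% ± 0.603 of WT and 7.42% ± 0.314 of 5xFAD libraries, and were higher in 5xFAD in dCLN by 0.190 points. With a limit of 4 added bases the order also differed between nodes: the share was 69.9% in WT and 70.2% in 5xFAD for dCLN, 73.6% and 69.8% for sCLN, and 70.0% and 70.6% for iLN (mean difference -0.989 points, exact permutation p = 1.0). The direction in dCLN and iLN thus depended on the limit.

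**Figure D1:**
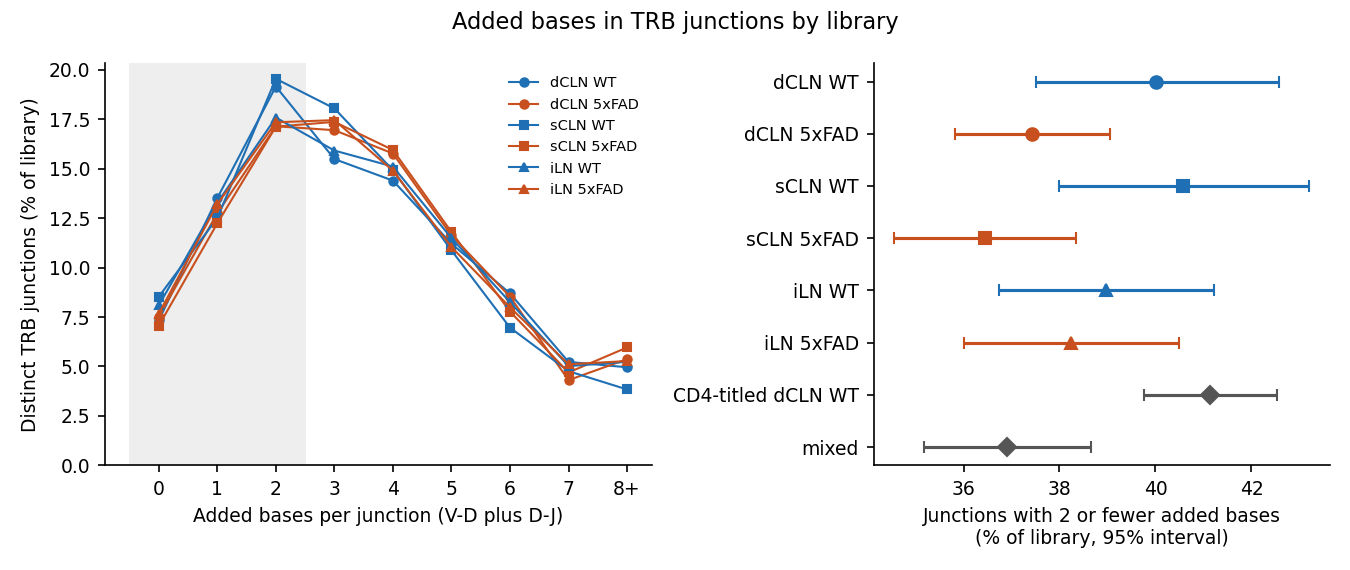
Left, distinct TRB junctions (% of library) by the number of added bases, 1 line per main library with WT in blue, 5xFAD in orange and the few-addition range shaded. Right, the share of junctions with 2 or fewer added bases in each of 8 libraries with its exact 95% interval, where the 3 WT points, 39.0% to 40.6%, lie above the 3 5xFAD points, 36.4% to 38.2%.

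In dCLN and sCLN the larger library had the lower share, whereas in iLN the larger one had the higher share. The CD4-titled library was the largest, with 13049 contigs, and had the highest share. From the highest share of the main libraries to the lowest, sCLN WT had 3458 contigs, dCLN WT 3695, iLN WT 4680, iLN 5xFAD 4047, dCLN 5xFAD 8426 and sCLN 5xFAD 6541, so in dCLN and sCLN the genotype and the library size cannot be told apart. The median UMI (unique molecule) count of a contig was the same for few-addition and other junctions within each library. Distinct TRB junctions without a D call, which could not be classed, made up 24.5% to 26.8% of a library. No contig of a gamma, delta or immunoglobulin locus was listed (0 contigs). No pair of libraries other than the 2 CD4-titled ones shared more than 47 barcodes, and 0 barcodes were shared together with their junction.

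Within the few-addition junctions, the 6 ways of placing at most 2 bases were filled fairly evenly. Of the 7927, 20.1% had no base at either join, 17.4% had 1 base at the V-D join alone, 16.3% had 1 at the D-J join alone, 17.2% had 2 at V-D, 14.5% had 2 at D-J and 14.4% had 1 at each. The bases that were added differed in composition from those of other junctions. Guanine and cytosine together were 52.3% ± 1.65 of added bases in few-addition junctions and 61.1% ± 0.466 in the others, and the ranges over 6 libraries, 49.9% to 54.6% and 60.6% to 61.8%, did not overlap. Guanine alone was 20.4% ± 0.689 against 27.2% ± 0.523, and thymine 24.1% ± 1.85 against 18.4% ± 0.581. TdT is known to favour guanine and cytosine. These values come from the bases the rule counted and were not tested.

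Few-addition junctions were shorter, which the rule in part fixes, since added bases are part of the length. They measured 41.2 ± 0.253 nucleotides against 43.7 ± 0.065 (mean ± SD over 6 libraries), and the median was 14 amino acids against 15 in every main library. The difference of 2.42 nucleotides was smaller than the difference of 3.56 in added bases. The rest lay in the germline-encoded part, which was 40.0 ± 0.245 nucleotides in few-addition junctions and 38.8 ± 0.086 in the others, longer in 6 of 6 libraries. The J gene had lost 2.62 ± 0.100 bases against 3.18 ± 0.077. The aligned D stretch was about as long, 7.61 ± 0.111 bases against 7.77 ± 0.078, but a whole D gene was retained in 0.930% ± 0.203 of few-addition and 2.50% ± 0.301 of other junctions. The peak of the length distribution was 14 amino acids for few-addition junctions, with 35.8% ± 3.45 of them, whereas the others were spread nearly equally over 14 (29.7% ± 1.54) and 15 (30.3% ± 1.70). A length of 16 was reached by 5.19% ± 0.168 and 16.4% ± 1.15. Germline length and added bases trade against each other in the annotation, so none of these was tested.

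**Figure D2:**
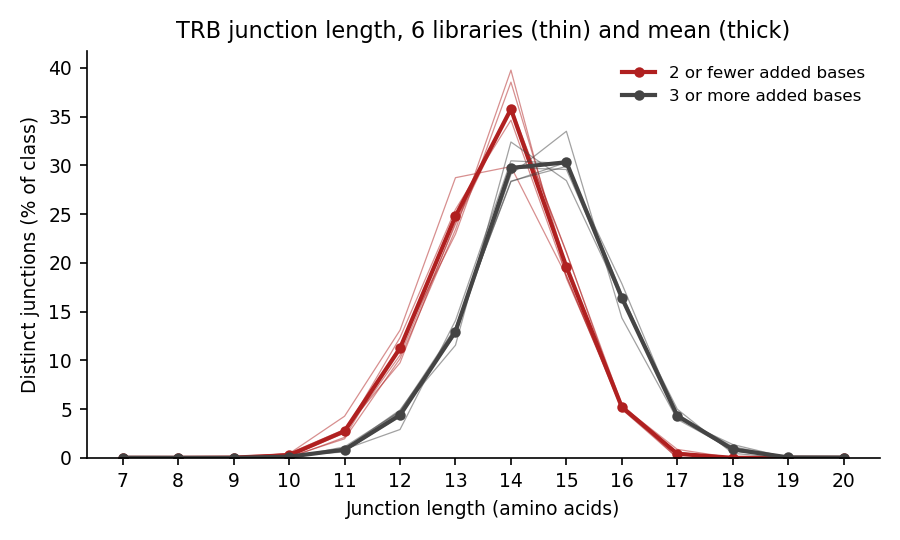
Distribution of TRB junction length in amino acids (% of the distinct junctions of each class) for few-addition junctions in red and other junctions in grey, with thin lines for 6 libraries and thick lines for their mean. The red curve peaks at 14 amino acids with a mean of 35.8%, and the grey curve is almost level between 14 and 15.

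Use of V and J genes differed between the 2 classes for 6 of 33 TRBV and TRBJ genes. The number of distinct junctions per gene was tested with edgeR's quasi-likelihood fit, with the library as a block and the total of each class as offset. That fit estimates spread jointly over all genes, so its p-values do not rest on a gene's own spread between libraries alone. A Benjamini-Hochberg adjusted p under 0.05 counted as a call. Calls higher in few-addition junctions were 9.09% of the genes tested (3 of 33) and calls lower in them were also 9.09% (3 of 33), while 13 genes had an unadjusted p under 0.05. The fitted log2 ratios of all 33 genes had a median of 0.08.

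TRBV4, the gene with a stop codon at its germline end, had the lowest ratio. Few-addition junctions were 33.7%, 31.0% and 31.5% of TRBV4 junctions in the dCLN, sCLN and iLN libraries of WT mice, and 22.1%, 29.9% and 31.4% in those of 5xFAD mice. Each of these was below the share over all genes in its library, and dCLN 5xFAD was the lowest. TRBV4 made up 4.97% ± 0.896 of few-addition and 7.30% ± 0.714 of other junctions (SD, n = 6), lower in 6 of 6 libraries, with a log2 ratio of -0.61 ± 0.11 (SE; adjusted p = 5.62e-06 by edgeR's quasi-likelihood test). The alignment to TRBV4 stopped a mean of 4.66 ± 0.083 bases short of its end and reached the end in 1.75% of 799 junctions. As 0 of the 799 held a stop codon there, alignments that reached the end differed from the letters printed above. The alignment to TRBV13-3 stopped 2.78 ± 0.254 bases short and reached the end in 19.0% of 986. Some genes without a stop codon there lay nearer to TRBV4. The alignment to TRBV15 stopped 4.15 ± 0.310 bases short and reached the end in 4.18% of 239. For TRBV29 the values were 4.19 ± 0.361 and 9.73% of 586, and for TRBV14 3.42 ± 0.13 and 3.65% of 520. For TRBV26 they were 3.72 ± 0.183 and 10.7% of 505, and for TRBV19 3.58 ± 0.312 and 9.56% of 293. TRBV3 lay beyond TRBV4, with 7.28 ± 0.360 and 0% of 625. The log2 ratios of these genes went both ways: 0.14 for TRBV3 and 0.29 for TRBV26, but -0.41 for TRBV15, -0.08 for TRBV29, -0.33 for TRBV14 and -0.25 for TRBV19. The part of the stop codon in the low share of TRBV4 was not tested. With a limit of 4 added bases the log2 ratio of TRBV4 was -0.25 and did not pass (adjusted p = 0.134 by edgeR), and with a limit of 0 it was -1.03.

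TRBV13-3, a member of the family known as V-beta 8, was higher in few-addition junctions. They were 47.6%, 34.5% and 52.0% of TRBV13-3 junctions in the dCLN, sCLN and iLN libraries of WT mice, and 40.2%, 38.0% and 45.9% in those of 5xFAD mice. The sCLN WT library went the other way from the remaining 5. Use was 8.80% ± 1.82 against 7.32% ± 1.31, with a log2 ratio of 0.26 ± 0.10 (adjusted p = 0.0398 by edgeR's quasi-likelihood test). This call was lost without dCLN WT, sCLN 5xFAD, iLN WT or iLN 5xFAD (adjusted p = 0.144, 0.0577, 0.260 and 0.145 by edgeR).

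Of the J genes, 4 passed the test. TRBJ2-2 was used by 6.73% ± 0.933 of few-addition and 5.01% ± 0.288 of other junctions, higher in 6 of 6 libraries (log2 ratio 0.39 ± 0.11, adjusted p = 0.00608 by edgeR). Few-addition junctions were 42.2% to 53.8% of TRBJ2-2 junctions, with dCLN WT the highest. TRBJ1-3 was used by 4.84% ± 0.583 and 3.90% ± 0.588, higher in 6 of 6 libraries (0.36 ± 0.12, adjusted p = 0.0288 by edgeR). Its share of few-addition junctions was nearly level over libraries, 41.7% to 46.2%.

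The other J genes that passed were lower in few-addition junctions. TRBJ2-3 was used by 9.52% ± 0.978 against 11.5% ± 1.15, lower in 6 of 6 libraries (log2 ratio -0.27 ± 0.08, adjusted p = 0.0118 by edgeR). TRBJ2-7, the most used J gene, was used by 17.4% ± 1.98 against 19.7% ± 1.16, lower in 5 of 6 libraries with sCLN WT the exception (-0.20 ± 0.05, adjusted p = 0.0118 by edgeR). The TRBJ1-3 call was lost without dCLN 5xFAD, sCLN 5xFAD, iLN WT or iLN 5xFAD (adjusted p = 0.165, 0.105, 0.0539 and 0.0576 by edgeR). That of TRBJ2-3 was lost without sCLN 5xFAD, iLN WT or iLN 5xFAD (adjusted p = 0.0643, 0.0885 and 0.0856 by edgeR). That of TRBJ2-7 was lost without dCLN WT, dCLN 5xFAD, sCLN 5xFAD or iLN WT (adjusted p = 0.0879, 0.0719, 0.0577 and 0.0539 by edgeR). Those of TRBV4 and TRBJ2-2 passed with each library left out. By DESeq2 TRBV4 was the 1 gene of 33 that passed, and TRBJ2-2 had an adjusted p = 0.116.

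A few genes with large ratios did not pass. TRBV2, with 83 few-addition of 183 junctions, had a log2 ratio of 0.42 ± 0.19 (adjusted p = 0.120 by edgeR) and was higher in 6 of 6 libraries. Its ratio was -0.51 when only junctions with 0 added bases were counted. TRBV26 had a ratio of 0.29 ± 0.12 (adjusted p = 0.0930 by edgeR) and was also higher in 6 of 6. TRBV15 had -0.41 ± 0.17 and TRBV19 -0.25 ± 0.15 (adjusted p = 0.107 and 0.277 by edgeR), each lower in 5 of 6 libraries. TRBV5, chosen here after its values were seen, had few-addition shares of 26.6% to 39.2% in the main libraries and higher ones in the CD4-titled and mixed libraries, 46.8% and 43.1%. Those 2 libraries used another allele set, and the part of the allele set in this was not tested.

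By position in the locus the groups of V genes lay close together. Few-addition junctions were 37.1% ± 1.81 of those with TRBV1 to TRBV5, 39.8% ± 1.98 with TRBV12 to TRBV20, 39.6% ± 1.86 with TRBV23 to TRBV30 and 36.5% ± 4.79 with TRBV31, which lies downstream of the J genes in reverse orientation. Of 5 genes in the first group, 1 was lower (TRBV4), of 11 in the second 1 was higher (TRBV13-3), and of 4 in the third and 1 in the last none passed (0). Of the 6 TRBJ1 genes 1 was higher and 0 lower, with a median log2 ratio of 0.17. Of the 6 TRBJ2 genes 1 was higher and 2 lower, with a median of -0.08, beside 0.08 over all 33 genes.

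**Figure D3:**
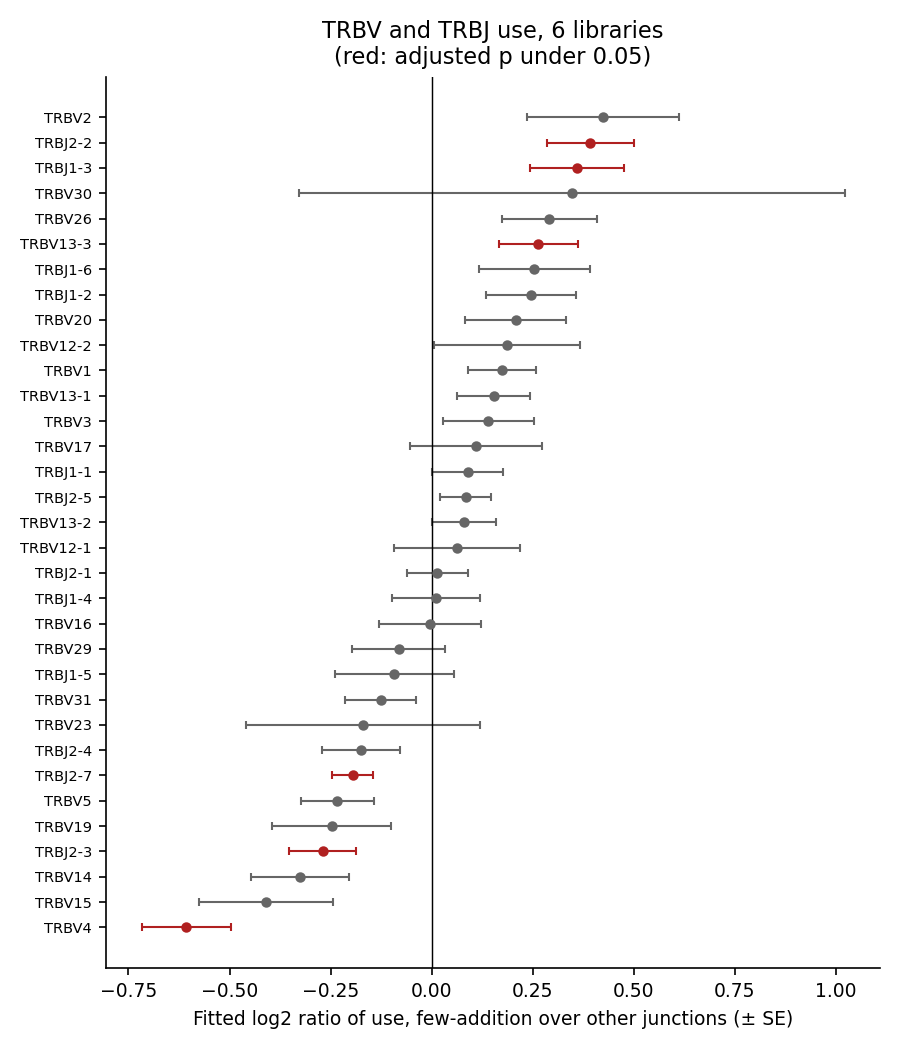
Fitted log2 ratio of the use of each of 33 TRBV and TRBJ genes in few-addition over other junctions (point, with its SE as the bar) from 6 libraries, with the genes past an adjusted p of 0.05 in red. TRBV4 lies farthest to the left at -0.61 and TRBJ2-2 is the rightmost of the red points at 0.39.

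The share of TRBJ2 genes as a whole was 68.7% ± 2.04 in few-addition and 71.4% ± 2.81 in other junctions. It was lower in few-addition junctions in 5 of 6 libraries, and the exception was sCLN WT with 70.9% against 69.4%. The mean difference of -2.69 points did not pass an exact sign-flip permutation test over 6 libraries (two-sided p = 0.0625, 0.156 after Benjamini-Hochberg adjustment over 5 such tests). Without sCLN WT it was -3.54 points, lower in 5 of 5. The D gene was called TRBD1 in 51.1% ± 2.71 of few-addition and 52.2% ± 0.854 of other junctions, and TRBD2 in 42.6% ± 2.91 and 40.7% ± 0.722.

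The TRBD2 gene lies downstream of all TRBJ1 genes, so a TRBD2 to TRBJ1 join does not follow from deletion of the DNA between them. Such pairs were called in 272 junctions. They were 9.16% ± 2.82 of few-addition and 5.94% ± 1.03 of other junctions with a TRBJ1 gene, higher in 5 of 6 libraries. Among junctions with a TRBJ2 gene, TRBD2 was called in 57.9% ± 2.55 and 54.7% ± 0.891, also higher in 5 of 6. Of the TRBD2-TRBJ1 junctions 50.8% ± 7.64 had few added bases, against 40.2% ± 2.18 of TRBD1-TRBJ1, 36.2% ± 2.56 of TRBD1-TRBJ2 and 39.1% ± 2.56 of TRBD2-TRBJ2 junctions. D stretches as short as 5 bases were aligned and the D genes share most of their letters, and whether these calls name the right D gene was not tested.

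Among few-addition junctions no gene passed the test between genotypes: 0% of the genes tested (0 of 32) by edgeR's quasi-likelihood test, with 1 at an unadjusted p under 0.05, and 0 by DESeq2, with 0 at an unadjusted p under 0.05. The largest fitted differences with 1 direction in all 3 node types were in TRBV23, TRBJ1-5 and TRBV26. TRBV23 made up 0.538% ± 0.271 of WT and 0.886% ± 0.409 of 5xFAD few-addition junctions (log2 ratio 0.70 ± 0.76, adjusted p = 0.666 by edgeR). TRBJ1-5 made up 2.77% ± 0.405 and 1.88% ± 0.372 (-0.58 ± 0.34, adjusted p = 0.601 by edgeR). TRBV26 made up 3.69% ± 0.628 and 5.00% ± 0.357 (0.44 ± 0.21, adjusted p = 0.588 by edgeR). The TRBV26 values of WT, 3.32% to 4.41%, lay below those of 5xFAD, 4.66% to 5.37%. Among the 32 genes, TRBJ1-5 (WT 2.5% to 3.2%, 5xFAD 1.5% to 2.3%) and TRBV1 (9.14% to 10.16% and 11.38% to 11.95%) did not overlap either. Such separation of 3 libraries from 3 was not tested and does not set TRBV26 apart.

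The same amino acid junction was found in the other genotype more often when few bases had been added. In dCLN WT, 7.64% of few-addition junctions (45 of 589) had their amino acid sequence in at least 1 of the 3 5xFAD main libraries, against 3.17% of other junctions (28 of 883). In sCLN WT it was 8.23% against 2.99%, and in iLN WT 9.14% against 3.63%. All 3 WT libraries thus lay above 7% for few-addition and below 4% for other junctions. In dCLN 5xFAD the shares found in a WT main library were 6.45% and 2.66%, in sCLN 5xFAD 5.31% and 1.93%, and in iLN 5xFAD 5.55% and 1.85%. The WT libraries were searched against 7853 junctions and the 5xFAD libraries against 4732, so shares compare within a library and not between genotypes.

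Over 6 libraries the shares were 7.05% ± 1.53 and 2.70% ± 0.705, a difference of 4.35 ± 0.877 percentage points and a ratio of 2.61 (range 2.41 to 3.00). It was higher for few-addition junctions in 6 of 6 libraries. The exact sign-flip permutation test gave a two-sided p = 0.031, the smallest that 6 libraries allow, and 0.156 after adjustment over 5 tests, which does not pass. To pass, all of the tests over 6 libraries would have had to reach that smallest p, so the adjusted value cannot decide on recurrence by itself. Libraries of 1 genotype were searched against the same libraries, so the 6 differences are not independent. As the classes differed in length, they were also compared within the same length: the shares were 7.06% ± 1.54 and 3.25% ± 0.853, higher in 6 of 6 libraries. A match in amino acids with the same TRBV and TRBJ gene was found for 2.83% ± 0.814 and 0.885% ± 0.370, and a match in junction nucleotides for 1.37% ± 0.503 and 0.247% ± 0.124. Searched against all 7 other libraries, 19.4% ± 0.887 and 6.60% ± 0.695 were found.

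The mean share found in the other genotype was lower with each further added base. From 9.88% ± 3.41 of junctions with 0 added bases, it went to 7.48% ± 1.70 with 1, 5.58% ± 1.95 with 2, 4.36% ± 1.44 with 3, 3.51% ± 1.43 with 4, 2.03% ± 0.657 with 5, 1.24% ± 1.01 with 6 and 0.696% ± 0.480 with 7 or more. There was no step at the limit of 2 bases, and single libraries overlapped between neighbouring numbers. By length, few-addition junctions were found more often at 13 amino acids (7.17% ± 2.28 against 2.73% ± 1.44), 14 (9.17% ± 1.70 against 4.27% ± 1.36) and 15 (6.87% ± 2.40 against 1.99% ± 0.721). At 12 amino acids the order was the opposite, 3.33% ± 3.23 against 5.24% ± 1.24, from 17 recurrent junctions in each class. These values by number and by length are descriptions.

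**Figure D4:**
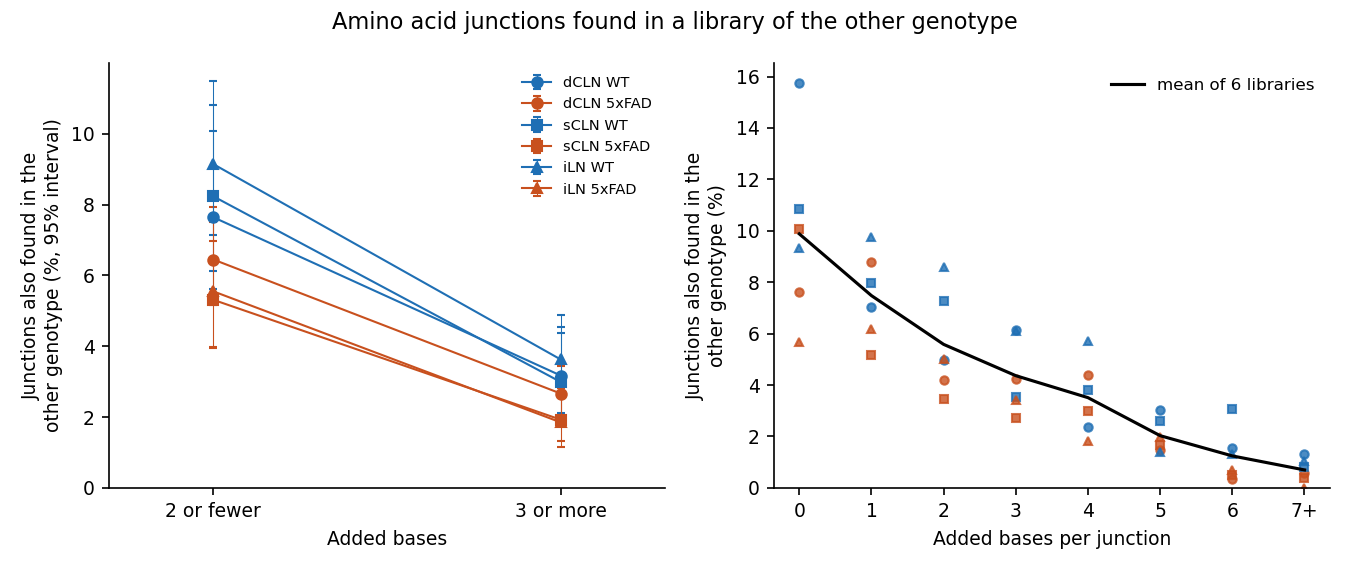
Left, the share of distinct TRB junctions (%, with exact 95% intervals) whose amino acids were also found in the other genotype, for few-addition and other junctions, 1 line per library with WT in blue and 5xFAD in orange. Right, the same share by number of added bases, with points for libraries and a line for their mean, which falls from 9.88% at 0 to 0.696% at 7 or more.

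Over all 8 libraries, 951 of 19052 amino acid junctions were found in at least 2 of them. Of these, 488 were made only by few-addition joins, 209 only by other joins and 254 by both, and 824 of the 951 had at least 2 different nucleotide junctions. Counting only libraries where the class itself made the junction, 81 of 7157 few-addition amino acid junctions were in 3 or more libraries, and 30 of 12191 others. In at least 4 libraries these were 11 and 7. Counting libraries where either class made it, the contrast was smaller. Then 112 few-addition ones were in exactly 3 libraries, 21 in 4 and 3 in 5, against 75, 16 and 4 others. No amino acid junction of either class was in 6 or more libraries (0).

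Few-addition junctions found in most libraries are shown next, each by a nucleotide version that no other version of it exceeded in number of libraries. Added bases are in capitals, and the rule fixes that most letters are germline ones. Of these, 4 lines have no capitals at all.
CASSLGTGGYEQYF, TRBV16, TRBD2, TRBJ2-7: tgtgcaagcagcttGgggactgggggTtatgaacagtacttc
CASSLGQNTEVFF, TRBV26, TRBD1, TRBJ1-1: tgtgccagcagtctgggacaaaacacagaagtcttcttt
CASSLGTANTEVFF, TRBV26, TRBD1, TRBJ1-1: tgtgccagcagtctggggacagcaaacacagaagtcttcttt
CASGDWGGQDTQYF, TRBV13-2, TRBD2, TRBJ2-5: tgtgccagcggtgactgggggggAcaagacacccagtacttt
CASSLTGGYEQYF, TRBV3, TRBD2, TRBJ2-7: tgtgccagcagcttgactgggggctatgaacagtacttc
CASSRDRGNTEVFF, TRBV14, TRBD1, TRBJ1-1: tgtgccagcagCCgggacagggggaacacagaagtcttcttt
a junction of 14 amino acids, TRBV3, TRBD1, TRBJ2-2: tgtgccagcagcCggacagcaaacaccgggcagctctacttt
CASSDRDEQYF, TRBV13-3, TRBD1, TRBJ2-7: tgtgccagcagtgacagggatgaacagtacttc
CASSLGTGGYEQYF was reached by 6 different nucleotide junctions in 4 libraries, with 5 different V genes and 0 to 2 added bases. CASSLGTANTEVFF was reached by 7, of which 5 were few-addition ones, in WT and 5xFAD libraries alike. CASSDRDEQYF was in all 3 WT main libraries and the mixed one and in 0 of the 5xFAD main libraries, whereas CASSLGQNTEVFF and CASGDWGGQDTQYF were each in 2 of the 5xFAD and 0 of the WT main libraries but also in the CD4-titled library, labelled WT, and in the mixed one. Single junctions in 1 to 3 libraries of a genotype were not tested.

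A junction from the other class, which by the rule has at least 3 added bases, is set beside these. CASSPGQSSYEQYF was found in 5 libraries, and its most widespread version carried 2 added bases at each join.
TRBV13-3, TRBD1, TRBJ2-7, in 3 libraries: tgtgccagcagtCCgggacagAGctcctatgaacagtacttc
TRBV14, TRBD1, TRBJ2-7, in dCLN WT: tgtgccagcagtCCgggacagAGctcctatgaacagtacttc
The 2 lines are identical in letters and differ only in the V gene that the rest of the contig named.

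Identical combinations of TRBV gene, TRBJ gene and junction nucleotides were also compared between pairs of main libraries. Between WT libraries 20 few-addition combinations were shared, or 17.0 per 1000000 possible pairs of junctions (exact 95% Poisson interval 10.4 to 26.3), against 2.98 (1.29 to 5.88; 8 shared) for other junctions. Between 5xFAD libraries it was 3.25 (1.49 to 6.17; 9 shared) against 1.15 (0.527 to 2.19; 9 shared). Between a WT and a 5xFAD library it was 3.08 (1.80 to 4.94; 17 shared) against 0.356 (0.116 to 0.831; 5 shared). Single libraries carried much of these rates. All 9 few-addition matches between 5xFAD libraries involved dCLN 5xFAD, and without it the rates were 0 shared for few-addition and 2.19 for other junctions (4 shared), the opposite order. Without sCLN 5xFAD they were 5.46 and 0.404. Between WT libraries they were 9.41 and 0 shared without sCLN WT, 26.7 and 4.23 without dCLN WT, and 14.9 and 5.42 without iLN WT. Between genotypes they were 1.96 and 0.639 without dCLN 5xFAD, and 3.10 and 0.0926 without iLN 5xFAD. Nodes of 1 genotype may share animals, and clones that had spread between nodes cannot be told apart there from separate joins with the same outcome. The intervals cover counting error only.

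Neither clone size nor the paired alpha chain differed between the classes by a test. A combination carried by 2 or more barcodes was found for 4.57% ± 2.31 of few-addition and 3.81% ± 2.52 of other junctions, higher in 4 of 6 libraries (difference 0.762 ± 1.03 points, exact permutation p = 0.125, adjusted 0.208). In dCLN WT, the library with most such clones, it was 8.49% in both classes, and in iLN WT, with the largest difference, 5.12% against 2.48%. Without iLN WT the mean difference was 0.385 points. Among junctions paired with an alpha chain (TRA), that chain had no added base in 20.7% ± 2.26 and 19.7% ± 1.22 (difference 1.02 ± 1.81 points, exact permutation p = 0.219, adjusted 0.25). The mean number of added bases in the paired alpha chain was 2.64 ± 0.147 and 2.63 ± 0.121.

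Chains of 2 unconventional T-cell types were rare in both classes. Alpha chains of the kind carried by invariant natural killer T cells (TRAV11 with TRAJ18 and a junction of 15 amino acids) were paired with 3 of 5066 few-addition and 1 of 7991 other junctions. Those of mucosal-associated invariant T cells (TRAV1 with TRAJ33, 12 amino acids) were paired with 9 and 13.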

How the data were processed

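Each library had 1 deposited table with a row per assembled contig, made by the authors from 10x Genomics single-cell libraries. The submitters' processing notes list mm10 as the build and the tools Cell Ranger (6.0.1) and Seurat (4.1.0), without saying which step used which. The deposited counts are UMI counts per contig, whole and unnormalized, per the file headers. The tables also gave, as deposited, the junction's length, the number of added bases at each join and the alignment positions. The aligner behind the gene calls is not given in the sources used here beyond the column set.

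Productive TRB contigs with a D call, a junction and both added-base lengths were kept (2 contigs with a D call had no junction) and collapsed to distinct TRBV-TRBJ-junction combinations per library. D alignments were 5 bases or longer. The rule, gene lists and tests were chosen with earlier results of these data known. Genes with at least 20 junctions were tested with edgeR 4.0.16 in R 4.3.3, and DESeq2 1.42.0 was an alternative. The test was also run on simulated counts. Single values were compared with exact sign-flip permutation tests in Python 3.11.15. Genotype differences among few-addition junctions were fitted with node type as a term. Germline ends and positions were read from GRCm38 with the GENCODE annotation, the same assembly as mm10.

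Named were genes past an adjusted p of 0.05, up to 15 in each direction, filled to 5 with the largest changes among those with at least 10 few-addition junctions and 1 direction in at least 5 of 6 libraries. Between genotypes these were the 3 largest changes with at least 30 few-addition junctions and 1 direction in 3 node types. Junctions were the 12 found in most libraries, of which those of 15 amino acids and 1 of 11 are not printed and 1 of 14 is printed as nucleotides only. Alternatives were a limit of 0 or 4 added bases, at least 2 UMIs, barcodes with exactly 1 TRB, D alignments of at least 5 or 7 bases, all contigs or all TRB as the base, other scaling, no filter, 8 libraries, other definitions of recurrence, and leaving out each library.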

Additional observations from a re-analysis of the deposited data

Results flagged for a closer look

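Use of TRBJ1-4 in few-addition minus other junctions had opposite signs in the genotypes: all 3 WT libraries were below 0 and all 3 5xFAD libraries above it. The difference was -0.683, -1.67 and -0.817 percentage points in the dCLN, sCLN and iLN libraries of WT mice, and 0.338, 0.508 and 1.67 in those of 5xFAD mice. The means were -1.06 and 0.838, so that WT minus 5xFAD was -1.89 points. This difference between genotypes was not tested. TRBJ1-4 was picked for these signs by a search of all 33 genes, so the selection fixes them. No other gene met that rule.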

How the results depend on the processing

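The difference in recurrence between few-addition and other junctions stayed positive under all 17 alternatives, from 1.13 percentage points (junction nucleotides) to 12.8 (all 7 other libraries). Leaving out single libraries gave 3.12 to 3.85 points with p = 0.0625 by the exact permutation test, the smallest that 5 libraries allow. The library left out was also no longer searched, so these values do not compare directly with the main one. The mean difference in the share of few-addition junctions stayed below 0 in 5xFAD under all alternatives, from -3.73 points (D alignments of at least 7 bases, added after the data were seen) to -0.567 points with a limit of 0 added bases, but with a limit of 4 it was -0.989 (exact permutation p = 1.0) and lower in sCLN alone. The TRBJ2 difference was -4.76 points with a limit of 0 added bases (unadjusted exact permutation p = 0.031). With a limit of 4 it was -3.28 points (unadjusted exact permutation p = 0.031). With 8 libraries it was -2.87 points (unadjusted exact permutation p = 0.016). Unlike the main value, these were not adjusted over 5 tests, so they do not count as passing. The alpha chain difference was -0.340 points, the opposite sign, with a limit of 4. The cause of these changes was not tested.

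Of 6 genes called between the classes by edgeR, 1 was called with a limit of 0 added bases and 1 by DESeq2 (TRBV4 in both), against 2 to 6 with single libraries left out. With a limit of 4 the number was 5, of which 2 were among the 6. Between genotypes 0 genes were called, and 1 (TRBV3) without iLN WT or without iLN 5xFAD. TRBV2 turned to -0.51 (log2) with a limit of 0. Of the other values of named genes, 167 kept their side of the threshold, 34 lost a call and 2 gained one (TRBV26). The 167 include genes that had no call to lose. All 34 losses were in the 6 called genes, each under 16 alternatives. TRBV13-3 lost its call in 10, TRBJ1-3 in 8, TRBJ2-3 in 7, TRBJ2-7 in 6, TRBJ2-2 in 2 and TRBV4 in 1. D alignments of at least 5 bases held for every junction, so that setting changed nothing. Pairing by node type or library was part of the main tests, and replicate numbers, given in accession order, paired nothing further. Each node and genotype had 1 library, junctions without a D call could not be classed, and the number of junctions limits the intervals.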
